A study of Mus musculus with 4 samples.

Results

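Core transcription factors of the blood stem cell were described here in 10 genes, Runx1, Gata2, Tal1, Meis1, Mecom, Myb, Erg, Fli1, Lmo2 and Cebpa. The genes were chosen by name, with earlier results of these data known. Each was placed on the mouse build mm9 by an approximate span given in steps of 0.01 Mb. They were then looked up in 2 lists of topologically associating domains (TADs), stretches of a chromosome that contact themselves more than their neighbours. Each gene lay in a TAD of its own, so that the 10 genes took 10 of 2318 fetal TADs and 10 of 2310 adult TADs.

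The lists came from Hi-C, which ligates and sequences DNA ends that lie near each other in the fixed nucleus. Cells were haematopoietic stem cells (HSCs) of B6129SF1 mice, with 2 samples of fetal liver (embryonic day 14.5) and 2 of adult bone marrow (6 to 8 weeks). The labels name no treatment or allele. Both tissues were sorted as lineage-negative, Sca1+, cKit+ and CD135-, a gate that also takes in early multipotent progenitors. The labels do not say whether animals were pooled. Each pair of samples had 1 TAD list, so the values carry no error between replicates and the cell types could not be tested against each other. The number of contacts behind a list is unknown. The lists hold no expression values, so the identity of the sorted cells was not checked against marker genes.

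These factors form a network that keeps the stem cell state. Tal1 and Lmo2 sit in one protein complex with a GATA factor, and that complex meets Runx1 and the ETS factors Fli1 and Erg at many shared enhancers. Meis1 and Mecom maintain self-renewal, Myb drives progenitors to proliferate, and Cebpa leads towards the myeloid lineages. Several of these genes are controlled by enhancers far from their promoters, and a TAD is often taken as the range over which such contacts are most frequent.

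Of the 10 genes, 8 lay in a TAD whose fetal and adult forms overlapped by at least 80% of both lengths. The exceptions were Gata2 and Fli1, whose adult TADs were 1410 and 930 kb longer than their fetal ones. The share of 8 in 10 has a 95% exact Clopper-Pearson interval of 44.4 to 97.5%, which covers counting error only. In the whole lists 73.4% of fetal TADs and 73.7% of adult TADs had such a counterpart. A position drawn at random along the chromosomes falls into long TADs more often than into short ones. The share was therefore also computed per 10 kb bin lying in TADs of both lists, and it was 75.1%. Genes need not be spread like such positions, and no background over genes was computed. The members' share was close to these values, and nothing in it sets the 10 genes apart.

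**Figure D1:**
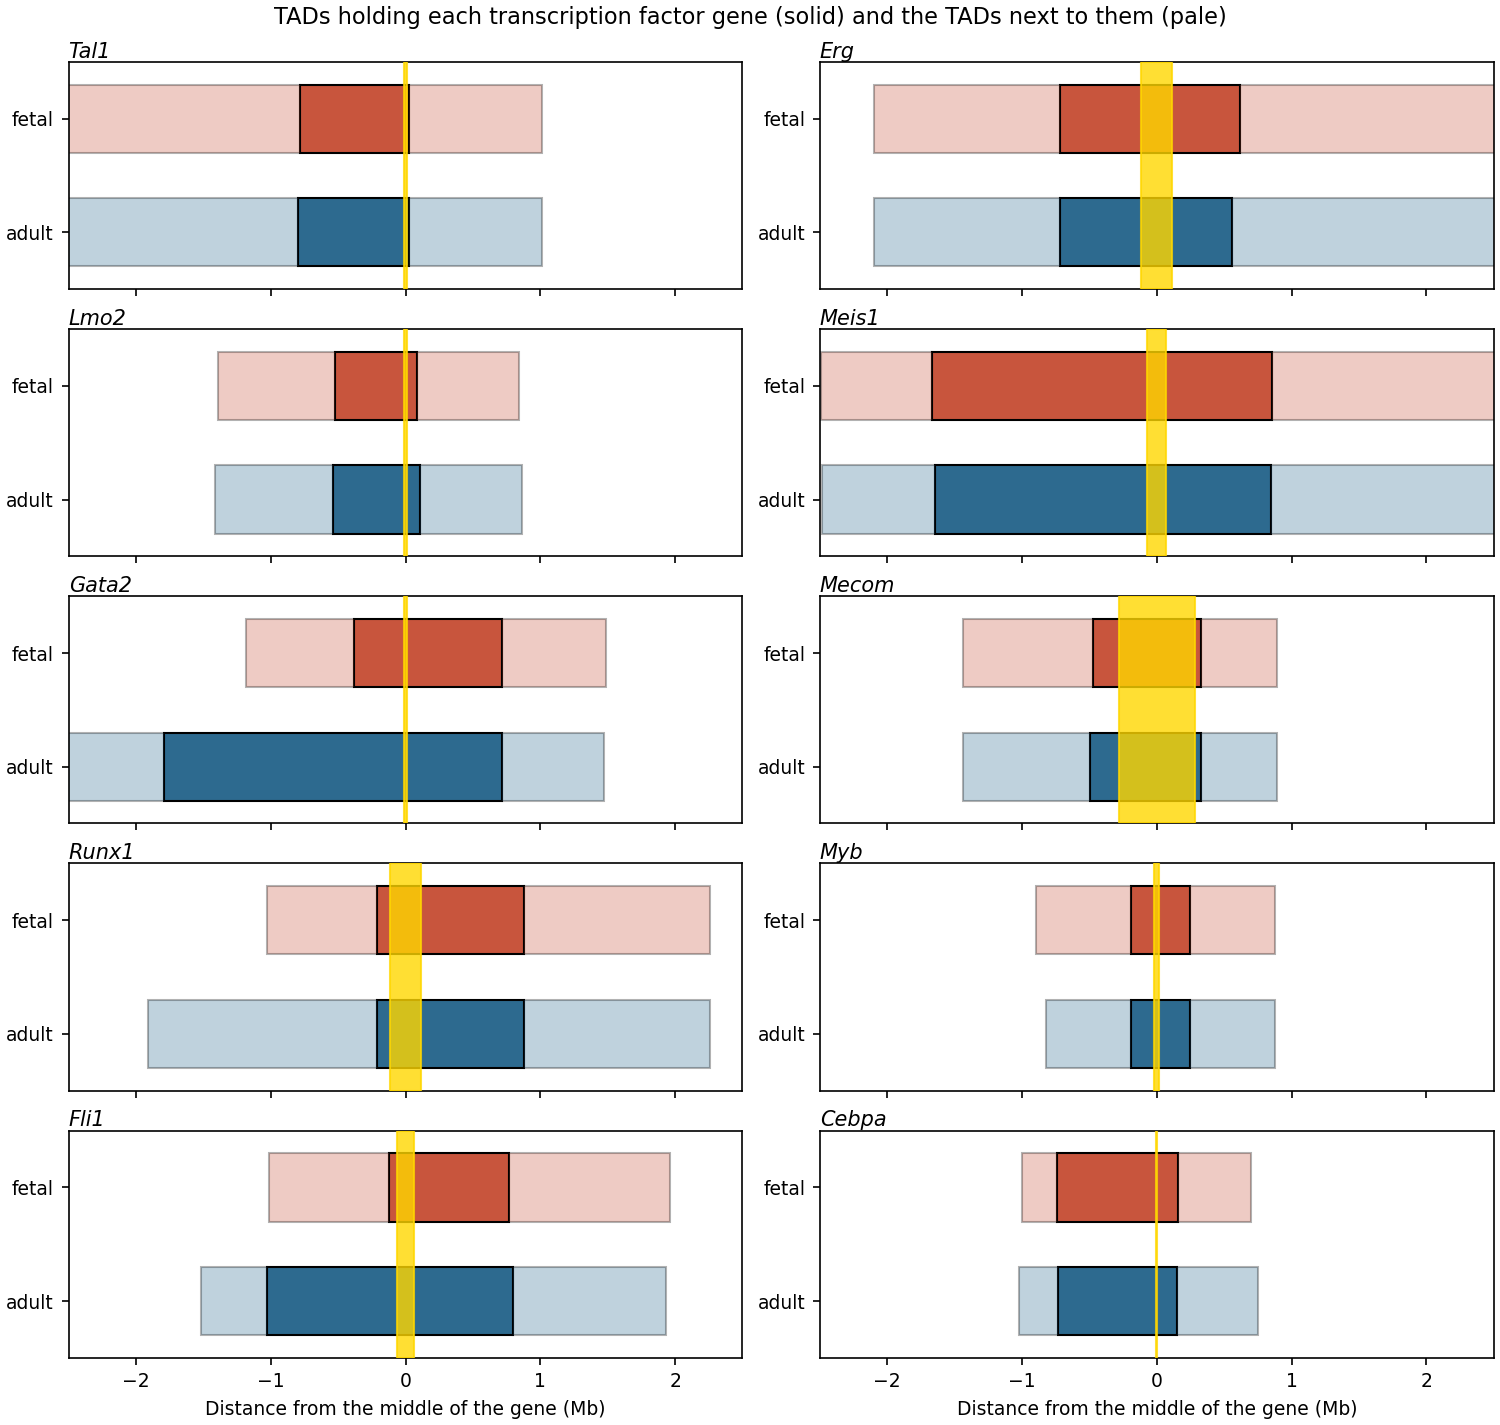
TADs around each gene in the fetal list (red, upper row of a panel) and the adult list (blue, lower row), against the distance from the middle of the gene in Mb. Solid bars are the TADs that hold the gene, pale bars the TADs next to them (clipped at 2.5 Mb), and the yellow band is the gene's approximate span. The solid bars nearly coincide except at Gata2 and Fli1, where the adult bar reaches 1410 and 900 kb farther to the left.

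Edge by edge, 17 of the 20 edges of the holding TADs lay within 40 kb of their counterpart, and 8 of 20 (interval of the share, 19.1 to 63.9%) lay at the same position. The interval treats edges as independent draws, although both edges of each TAD were counted. Measured to the nearest boundary of the other list, 17 fetal and 19 adult edges of 20 lay within 40 kb, and 8 and 9 at the same position. By that measure the whole lists had 83.4% (fetal) and 83.5% (adult) of boundaries within 40 kb. At the same position they had 30.1% and 30.2%. Coordinates lie on a 10 kb grid, so 10 kb is the smallest displacement the lists can show. Both edges were kept within 40 kb at 7 of 10 genes, against 64.1% of fetal TADs, 64.3% of adult TADs and 63.1% of bins. The genes outside this count were Gata2, Fli1 and Erg.

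**Figure D2:**
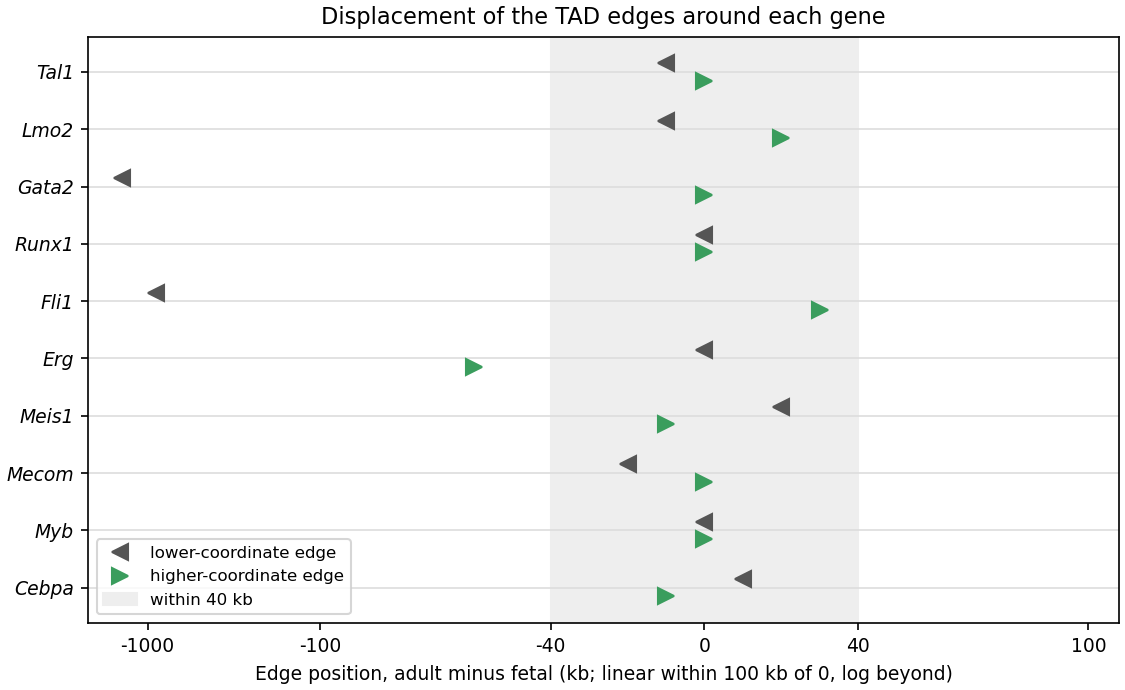
Displacement of the lower-coordinate edge (grey) and the higher-coordinate edge (green) of the TAD holding each gene, adult minus fetal, in kb, with the axis linear within 100 kb of 0 and logarithmic beyond. The grey band marks 40 kb on both sides of 0, and the symbols outside it are the lower edges of Gata2 (-1410 kb) and Fli1 (-900 kb) and the higher edge of Erg (-60 kb).

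Tal1 (NCBI Gene 21349, chromosome 4) encodes the basic helix-loop-helix factor, also called Scl, without which no blood forms. Its span of 114.73 to 114.75 Mb lay in chr4:113955001-114765000 in the fetal list and in chr4:113945001-114765000 in the adult list, TADs of 810 and 820 kb. The higher edge was the same in both lists, at 114.765 Mb, and the lower edge differed by 10 kb. Tal1 stood closest to an edge of all 10 genes, 15 kb from it in both lists and 775 or 785 kb from the other edge. Among all 10 kb bins in TADs, 4.04% in the fetal and 4.18% in the adult list had their centre within 15 kb of an edge. Those shares hold for a single bin and its centre, whereas Tal1 is the closest of 10 genes, measured from the end of its span. They therefore do not say how unusual its place is. The distance of Tal1 is near the 0.01 Mb precision of the span, and at 15 kb a span widened by 10 kb necessarily stays inside the TAD. Tal1 runs on the plus strand, so that its 3′ end faces this edge. The next protein-coding gene on that side is Pdzk1ip1 and on the other side Stil, by the order of genes in RefSeq's GRCm38 table. The TADs on both sides of the Tal1 TAD were also kept, with fetal lengths of 2420 and 990 kb and adult lengths of 2380 and 990 kb.

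The 250 bases before the RefSeq starts of Tal1 are shown because this is the gene with a TAD edge close by. They are written 5′ to 3′ on the plus strand of GRCm38.p6, a build whose positions cannot be set beside the mm9 positions of the TADs. The first start has chr4:115056176-115056425 and the second chr4:115057561-115057810. Capitals mark the GATA-factor motif AGATAA on either strand, which stands in 1 place, as its reverse complement, 205 bases before the first start and nowhere in the second window.
Tal1, first start: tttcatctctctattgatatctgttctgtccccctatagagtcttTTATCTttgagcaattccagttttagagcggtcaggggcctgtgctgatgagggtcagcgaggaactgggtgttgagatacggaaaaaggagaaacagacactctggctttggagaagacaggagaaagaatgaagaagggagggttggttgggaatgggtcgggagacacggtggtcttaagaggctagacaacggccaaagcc
Tal1, second start: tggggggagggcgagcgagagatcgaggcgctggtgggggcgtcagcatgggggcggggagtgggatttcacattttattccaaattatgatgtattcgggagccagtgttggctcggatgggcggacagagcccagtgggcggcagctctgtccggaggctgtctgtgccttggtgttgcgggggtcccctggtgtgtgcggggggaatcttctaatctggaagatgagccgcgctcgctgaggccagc

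Lmo2 (NCBI Gene 16909, chromosome 2) encodes the LIM-only bridge that joins Tal1 to its GATA partner. Its span of 103.80 to 103.82 Mb lay in chr2:103285001-103895000 in the fetal and chr2:103275001-103915000 in the adult list. The fetal TAD was 610 kb long and the adult one 640 kb, with edges displaced by -10 and 20 kb. Both TADs were shorter than the median of their list, and Myb was the only other gene of which that was true. Lmo2 lay towards the higher edge, at 75 kb (fetal) and 95 kb (adult) from it. Its midpoint stood at 86.1% and 83.6% of the TAD's length. Caprin1 is its neighbour on the lower side.

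Gata2 (NCBI Gene 14461, chromosome 6) encodes the zinc-finger factor that HSCs need to expand and survive. Its span of 88.14 to 88.16 Mb lay in chr6:87765001-88865000 in the fetal list, a TAD of 1100 kb. In the adult list it lay in chr6:86355001-88865000, a TAD of 2510 kb that was longer than 95.8% of all adult TADs. The fetal TAD lay wholly inside the adult one but made up only 43.8% of it. Both outer edges of the adult TAD, 86.355 and 88.865 Mb, were fetal boundaries at the same positions. Between them lay 3 fetal TADs, of 610, 800 and 1100 kb, and Gata2 was in the last. The lists thus differed at this locus by the fetal boundaries at 86.965 and 87.765 Mb, which the adult list lacked. The boundary at 87.765 Mb lay 375 kb from the gene, and the nearest adult boundary to it was 1100 kb away. On the higher side, where Dnajb8 is the next gene, the edge was 705 kb away in both lists. On the lower side, where Rpn1 is the next gene, the distance to the edge rose from 375 kb (fetal) to 1785 kb (adult). The midpoint of Gata2 moved from 35.0% to 71.5% of the TAD's length. The TAD on the higher side of Gata2 was kept, at 770 kb (fetal) and 760 kb (adult).

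The 250 bases before the RefSeq starts of Gata2 are shown because its TAD differed most between the lists. They are on the plus strand of GRCm38.p6, at chr6:88193641-88193890 for the first start and chr6:88198414-88198663 for the second. Neither holds AGATAA on either strand, so no letter is in capitals. Their G and C content was 67.2% and 74.0%, against a median of 52.4% over all RefSeq windows. A content above the median was not particular to Gata2. The windows of Myb and Cebpa had 81.2% and 66.4%, while every window of Erg and Mecom lay below the median.
Gata2, first start: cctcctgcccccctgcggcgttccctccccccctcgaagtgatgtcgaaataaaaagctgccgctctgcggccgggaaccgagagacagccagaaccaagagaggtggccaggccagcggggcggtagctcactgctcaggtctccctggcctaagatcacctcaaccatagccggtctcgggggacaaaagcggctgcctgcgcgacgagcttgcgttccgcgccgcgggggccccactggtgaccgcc
Gata2, second start: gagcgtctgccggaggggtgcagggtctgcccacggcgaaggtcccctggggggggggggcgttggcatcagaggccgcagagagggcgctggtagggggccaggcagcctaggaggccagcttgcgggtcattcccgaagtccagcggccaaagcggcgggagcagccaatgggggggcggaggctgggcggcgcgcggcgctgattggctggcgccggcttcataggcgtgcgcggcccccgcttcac

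Runx1 (NCBI Gene 12394, chromosome 16) encodes the DNA-binding part of core binding factor, which is needed for HSCs to arise from endothelium. Its span of 92.60 to 92.83 Mb lay in chr16:92505001-93595000 in both lists, a TAD of 1090 kb with identical edges. By this given span, which is questioned below at Erg, the gene took up 21.1% of the TAD. It lay near the lower edge, 95 kb from it and 765 kb from the higher edge. Runx1 runs on the minus strand, between Clic6 and Setd4, so that its 3′ end faces the nearer edge. The TAD on the lower side differed between the lists. It began at 91.685 Mb in the fetal list and at 90.805 Mb in the adult list, with lengths of 820 and 1700 kb. The TAD on the higher side, from 93.595 to 94.975 Mb, was identical.

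Fli1 (NCBI Gene 14247, chromosome 9) encodes an ETS factor of stem cells, megakaryocytes and endothelium. Its span of 32.23 to 32.35 Mb lay in chr9:32165001-33055000 in the fetal list, a TAD of 890 kb. In the adult list it lay in chr9:31265001-33085000, a TAD of 1820 kb, longer than 89.5% of adult TADs. The fetal TAD lay wholly inside the adult one and made up 48.9% of it. The adult lower edge was 10 kb from a fetal boundary at 31.275 Mb, and the adult higher edge was 30 kb from the fetal one. The adult TAD therefore lay over 2 fetal TADs of 890 kb each, and the lists differed by the fetal boundary between them at 32.165 Mb. That boundary stood 65 kb from the span of Fli1, on the side of Kcnj1, and the nearest adult boundary to it was 900 kb away. On the side of Ets1, the neighbouring ETS gene, the edge was 705 kb (fetal) and 735 kb (adult) from Fli1. Fli1 thus lay at the lower end of its TAD in the fetal list, with its midpoint at 14.0% of the length, and near the middle in the adult list, at 56.3%.

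Erg (NCBI Gene 13876, chromosome 16) encodes a close relative of Fli1 that sustains adult HSCs. Its span of 95.58 to 95.81 Mb lay in chr16:94975001-96315000 in the fetal and chr16:94975001-96255000 in the adult list, TADs of 1340 and 1280 kb. The lower edge was identical and the higher edge, on the side of Ets2, was 60 kb lower in the adult list. The fetal TAD was shared to 95.5%, so Erg counted as kept by overlap and not by its edges. The gene lay near the middle, at 53.7% and 56.2% of the length, and 445 kb or more from any edge. By their approximate spans Erg and Runx1 lie 2.75 Mb apart on chromosome 16, and in both lists exactly 1 TAD, of 1380 kb, stood between theirs. In RefSeq's GRCm38 table the distance is 2.53 Mb, 0.22 Mb less. Whether the builds differ by this amount or a span is misplaced was not settled here. In GRCm38.p6 the window before the first Runx1 start, chr16:92826075-92826324, lies at the given upper end, 92.83 Mb. At no other gene with windows did the first start lie at the matching end of the given span. The Runx1 span could therefore be a GRCm38 position, which was not checked against an mm9 annotation. Moved by 0.22 Mb towards the other gene, Erg or Runx1 would stay in the same TAD in both lists. Erg would then lie 388 kb from its lower edge, with its midpoint at 37.5% (fetal) and 39.3% (adult) of the length, and Runx1 would lie 312 kb from its lower edge and not 95 kb. The edge distances of both genes rest on their given spans to that extent.

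Of the 3 windows at starts of Erg in RefSeq, 1 held AGATAA, again as its reverse complement (in capitals), 103 bases before the start, and it is shown for comparison with Tal1. It lies at chr16:95459349-95459598 on the minus strand of GRCm38.p6 and is written 5′ to 3′ on that strand.
Erg, start 3: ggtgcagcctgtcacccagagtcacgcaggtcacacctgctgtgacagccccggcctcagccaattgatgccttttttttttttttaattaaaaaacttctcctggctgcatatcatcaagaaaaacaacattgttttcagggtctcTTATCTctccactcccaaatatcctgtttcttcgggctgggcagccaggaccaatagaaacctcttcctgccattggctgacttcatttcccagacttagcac

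Meis1 (NCBI Gene 17268, chromosome 11) encodes a homeodomain cofactor of Hox proteins. Its span of 18.78 to 18.92 Mb lay in chr11:17185001-19705000 in the fetal and chr11:17205001-19695000 in the adult list. These TADs of 2520 and 2490 kb were longer than 95.3% and 95.7% of their lists. Their edges differed by 20 and -10 kb. The nearer edge was 785 and 775 kb away, farther than for any other of the 10 genes in the same list. Its midpoint stood at 66.1% of the length in both lists.

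Mecom (NCBI Gene 14013, chromosome 3) encodes the Evi1 and Mds1-Evi1 proteins, zinc-finger factors of long-term HSCs. Its span of 29.85 to 30.41 Mb lay in chr3:29655001-30455000 in the fetal and chr3:29635001-30455000 in the adult list, TADs of 800 and 820 kb. The higher edge was identical and the lower edge differed by -20 kb. With 560 kb, the gene filled 70.0% of the fetal and 68.3% of the adult TAD, more than any other gene of the 10. It runs on the minus strand, and its most upstream start was therefore at the higher end, 45 kb from the edge in both lists. The other end was 195 and 215 kb from the lower edge. No boundary of either list fell inside the gene.

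Myb (NCBI Gene 17863, chromosome 10) encodes the factor that drives progenitor proliferation, and it lies between Ahi1 and Hbs1l. Its span of 20.84 to 20.88 Mb lay in chr10:20665001-21105000 in both lists, with identical edges. This TAD of 440 kb was the shortest of the 10. Only 14.5% of fetal and 13.5% of adult TADs were shorter. Myb lay near its middle, 175 kb from the lower and 225 kb from the higher edge. On the higher side, where Hbs1l follows, the next boundary, at 21.735 Mb, was also identical. On the lower side the boundary before the TAD differed by 70 kb, at 19.965 Mb in the fetal and 20.035 Mb in the adult list.

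Cebpa (NCBI Gene 12606, chromosome 7) encodes the leucine-zipper factor of the granulocyte and monocyte lineages. Its span of 35.90 to 35.91 Mb lay in chr7:35165001-36065000 in the fetal and chr7:35175001-36055000 in the adult list, TADs of 900 and 880 kb. Both edges moved inwards by 10 kb in the adult list. The gene stood 155 and 145 kb from the higher edge, on the side of Slc7a10, and its midpoint was at 82.2% and 83.0% of the length. The TAD on its lower side was short in both lists, with 260 and 290 kb.

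Across the 10 genes, the adult TAD was longer at 5, shorter at 3 and of equal length at 2. The differences were 30 kb or less except at Gata2, Fli1 and Erg. The median length of the holding TADs was 895 kb (fetal; range 440 to 2520) and 985 kb (adult; range 440 to 2510). The medians over all TADs were 790 and 760 kb, and 8 of 10 genes lay above them in each list. Weighted by length, as for a position drawn at random along the chromosomes, the medians over all TADs were 1230 and 1150 kb. Above them lay 2 genes in the fetal and 4 in the adult list. The direction of this comparison therefore turns with the weighting.

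**Figure D3:**
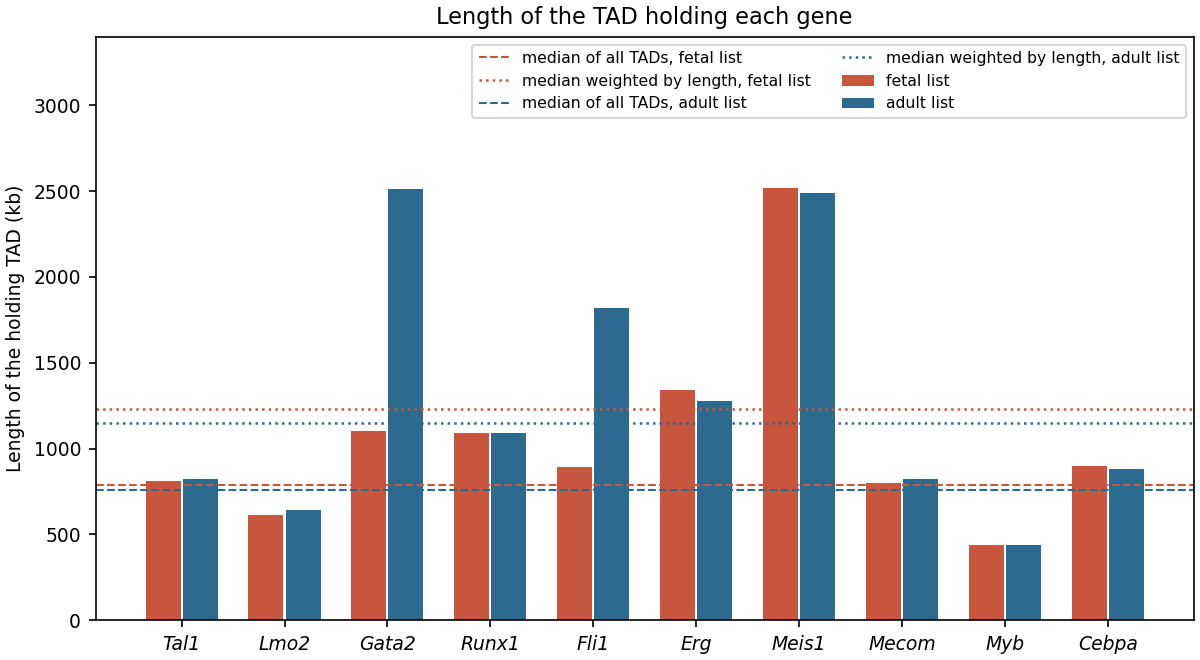
Length in kb of the TAD holding each gene in the fetal (red) and adult (blue) list, with the median over all TADs of the list (dashed) and the median weighted by length (dotted). Gata2 rises from 1100 to 2510 kb and Fli1 from 890 to 1820 kb, while the other bars differ by 60 kb or less.

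The pattern at Gata2 and Fli1, in which the adult list had 1 TAD where the fetal list had several, was then counted in the whole lists. A fetal TAD was called joined when at least 90% of it, and of at least 1 other fetal TAD, lay inside the same adult TAD. By this rule, set after the loci were seen, 2 of 10 genes (interval of the share, 2.52 to 55.6%) lay in a joined fetal TAD. The share was 13.8% of all fetal TADs and 11.3% of bins. In the other direction 0 of 10 adult TADs holding these genes were joined in the fetal list (exact interval of the share, 0 to 30.8%), and 15.4% of all adult TADs were. With 10 genes neither count can be told from the whole lists. The edge counts partly restate the same loci and are no separate evidence. Of 20 fetal edges 17 had an adult boundary within 40 kb, and 19 of 20 adult edges had a fetal one. The fetal edges without a partner were the lower edges at Gata2 and Fli1 and the higher edge at Erg. The adult edge without a partner was the higher edge of Erg.

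Genes also differed in how close they lay to an edge. The median distance from the span to the nearer edge was 125 kb (fetal; range 15 to 785) and 160 kb (adult; range 15 to 775). Tal1 and Mecom lay within 50 kb in both lists. Runx1, Fli1 and Lmo2 followed within 100 kb in the fetal list, and Runx1 and Lmo2 in the adult list. Of all 10 kb bins in TADs, 10.1% (fetal) and 10.5% (adult) had their centre within 50 kb of an edge, and 20.1% and 20.8% within 100 kb. A span reaches closer to an edge than its centre does, so these shares are not on the same footing as distances from the span. Measured from the midpoint of the span, the medians were 202 and 268 kb, against 265 and 255 kb over all 10 kb bins in TADs. From the midpoint, 6 genes in the fetal and 5 in the adult list were nearer to an edge than the median bin. These medians and counts use the given spans. Moved by 0.22 Mb, as described at Erg, Runx1 would lie 312 kb from its nearer edge in both lists and not within 100 kb.

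**Figure D4:**
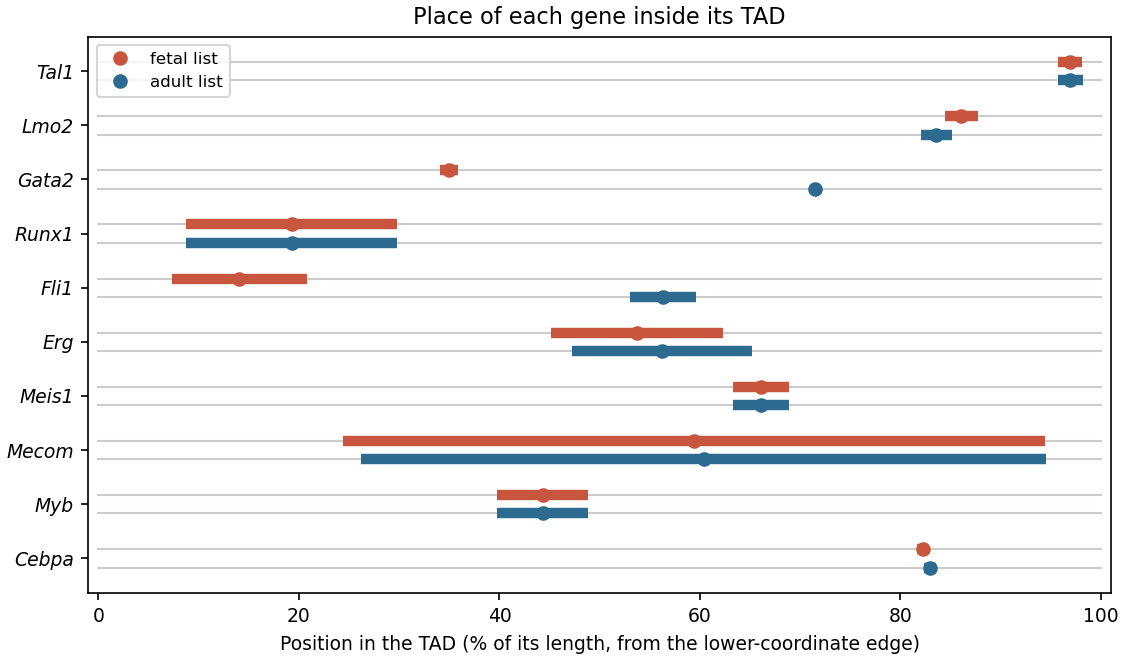
Place of each gene in its TAD as a percent of the TAD's length from the lower-coordinate edge, in the fetal (red) and adult (blue) list. Thick bars are the gene's approximate span and dots its midpoint. Gata2 moves from 35.0% to 71.5% and Fli1 from 14.0% to 56.3%, while Tal1 sits at 96.9% and 97.0%.

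Within 1 Mb on each side of the spans the fetal list had 27 boundaries and the adult list 23. Of these, 21 fetal boundaries, or 77.8% (57.7 to 91.4), and 20 adult boundaries, or 87.0% (66.4 to 97.2), lay within 40 kb of one of the other list. The shares over all boundaries, 83.4% and 83.5%, lie inside both intervals. These intervals treat boundaries as independent draws, although most genes have several and edges of the holding TADs are among them. All boundaries in the window were shared at Tal1, Meis1, Mecom and Lmo2. Those of the fetal list that were not shared lay at Runx1, Gata2, Myb, Erg, Fli1 and Cebpa, 1 at each. At Myb, Erg and Cebpa the partner was only 70, 60 and 50 kb away, so that 3 fetal boundaries, at Runx1, Gata2 and Fli1, had no adult boundary within 100 kb. All 3 lay on the lower-coordinate side of the gene. The one at Runx1, at 91.685 Mb, lay 915 kb from the given span, and it would leave the window if Runx1 were moved by 0.22 Mb. The holding TADs had 19 distinct neighbours in each list, since 1 TAD adjoins those of both Runx1 and Erg. Of these neighbours, 16 fetal and 18 adult ones had a counterpart by the overlap rule (intervals of the shares, 60.4 to 96.6% and 74.0 to 99.9%), against 73.4% and 73.7% over all TADs. Of these, the fetal interval holds 73.4% and the adult one begins just above 73.7%, while the share per bin, 75.1%, lies inside both. The intervals treat neighbours as independent draws, but each shares an edge with a holding TAD. They therefore decide nothing about a difference from the whole lists.

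The windows of 250 bases before RefSeq starts were searched for motifs of the factors themselves, on both strands. RefSeq's table gave 14 windows for 8 of the 10 genes. The motif AGATAA of GATA factors was in 2 of the 14 windows and in 9.99% of all 32851 windows. The motif TGTGGT of RUNX factors was in 1 window, at Meis1, and in 14.0% of all. The motif CCGGAA of ETS factors was in 2, at Meis1 and Runx1, and in 12.0% of all. The motif CAGATG, bound by Tal1 and its partners, was in 1, at Mecom, and in 14.4% of all. The motif TGACAG of MEIS factors was in 2, at Mecom and Erg, and in 15.9% of all, and CAACTG of MYB factors was in 1, at Runx1, and in 11.1% of all. None of the sites found overlapped another. A match describes letters in a window and not binding.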

How the data were processed

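Hi-C was measured in 4 samples, 2 per cell type. The authors deposited 1 TAD list per cell type, with chromosome, start and end in base pairs and no score. The submitters' processing notes name HiC-Pro, GSNAP and the build mm9, without their roles. Not given in the sources used here are the TAD caller, its settings and whether samples were pooled, and each could change a boundary. Starts count from 0 in the files and are printed from 1, and lengths are end minus start.

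Gene spans were taken as approximate mm9 positions in steps of 0.01 Mb, given with the list of genes and not read from an annotation. RefSeq's GRCm38 tables served for gene IDs, strands, the order of neighbours and sequences. Their positions were otherwise used only for the distance between Runx1 and Erg and to set first starts beside the given spans. All 10 genes were matched by symbol, and 8 had start windows. The genes and the motifs were chosen with earlier results of these data known.

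A gene's TAD holds its whole span. TADs were kept when they overlapped by at least 80% of both lengths, and edges when they lay within 40 kb. The script was tested on simulated data. Every gene was named, by a rule that left none out. Python 3.11.15 and scipy 1.17.1 were used. Alternatives were other tolerances, overlaps, windows, weightings and points of the gene, TADs of at least 200 kb, and leaving out chromosome 11. The other blood transcription factors listed for comparison were not analysed here, since no mm9 positions were at hand.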

Additional observations from a re-analysis of the deposited data

How the results depend on the processing

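By midpoint, with spans widened by 10 kb, or among TADs of at least 200 kb, all 10 genes lay in 1 TAD per list. These outcomes followed from the main result, since every span lay at least 15 kb inside its TAD and the shortest holding TAD had 440 kb. The count was also 10 with Runx1 or Erg moved by 0.22 Mb, an alternative chosen after seeing the data. The count of TADs kept by overlap was 8 at overlaps of 50% and 90%, and 7 of 9 without chromosome 11, which holds Meis1. The count with both edges kept was 7 at 20 kb and 8 at 100 kb, and it fell to 4 at 10 kb and 2 at the same position, since a narrower tolerance admits fewer edges. The count of genes in joined fetal TADs was 2 with 80% or 95% inside, also chosen after seeing the data. Shares over all TADs were computed only at the main settings, an overlap of 80%, edges within 40 kb and 90% inside. The counts at other settings therefore cannot be set beside the whole lists. Means in place of medians gave 1050 kb for the fetal and 1279 kb for the adult holding TADs. The medians over all TADs were 1230 and 1150 kb weighted by length, and 810 and 770 kb among TADs of at least 200 kb. Distances to the nearer edge were 202 and 268 kb from the midpoint. Boundaries near the genes numbered 10 fetal and 9 adult within 500 kb, and 43 and 42 within 2 Mb. With sharing counted within 100 kb, 88.9% of the 27 fetal and 100% of the 23 adult boundaries within 1 Mb of the genes were shared. The share over all boundaries was not computed at that tolerance. Of 43 alternative values 28 stayed by the rule used (inside the interval of a share, within 1.5 times for a count, no change for a length or distance) and 15 moved. The rule could not mark a reversal, and the length comparison with all TADs did turn with the weighting. Some values that stayed could not have moved, such as those of the holding TADs under the limit of 200 kb. No paired analysis was possible because each list stands for both samples of a cell type, and for the same reason no replicate could be left out. The depth of the lists is unknown, and a single boundary has no error.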

Other observations

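The nearest stretch without any TAD lay between 2.31 and 25.0 Mb from these genes. Such distances were not computed for all TADs, so they have no reference here. The nearest stretch was 22.0 Mb from Runx1, 25.0 Mb from Erg, 24.9 Mb from Myb and 19.0 Mb from Fli1 in both lists. It was 2.92 Mb from Mecom in both lists. At Lmo2 it was 2.31 Mb away in the fetal and 2.52 Mb in the adult list, at Cebpa 2.81 and 2.79 Mb, and at Tal1 6.16 and 6.17 Mb. At Gata2 the distance was 10.6 Mb in the fetal and 8.21 Mb in the adult list. Meis1 differed most, with 2.42 Mb in the fetal and 16.9 Mb in the adult list. The stretch nearest to it in the fetal list had no counterpart in the adult one, and the length of that stretch was not examined.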
